A study of Mus musculus with 120 samples.

Results

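The comparison described here is the effect of added proline on the response of mouse macrophages to 9.7 and 39 nM halofuginone at the last time point of the study, labelled T4. It holds 8 libraries of the 120 in the series, chosen by their labels alone: 4 with 2 mM proline (2 at 9.7 nM and 2 at 39 nM) and 4 at the same doses without it, with the 12 T4 controls as the reference level. The cells were bone marrow-derived macrophages (BMDMs), grown from the marrow of wild-type male C57BL/6 mice aged 12 weeks and transduced with a virus that carries transcription factor reporters before they were replated in 96-well plates, and all groups share this. The RNA was read by 3′ digital gene expression, which counts reads from the 3′ ends of transcripts. Halofuginone was given at 7 doses from 2.4 to 10000 nM, alone or with proline, and the design text places the compound before a lipopolysaccharide (LPS) stimulus. No label gives the unit of the time points, says which libraries received LPS, or says whether the controls received proline, so the effect of proline without halofuginone cannot be told apart here. Nor do the labels say that the libraries of a group came from separate cultures, so p-values measure a spread between libraries that may be technical. For the gene tests of the 20 libraries most of that spread was estimated from the 12 controls (11 of 15 residual degrees of freedom).

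Halofuginone binds the prolyl-tRNA synthetase of the glutamyl-prolyl-tRNA synthetase (Eprs), where it takes the place of proline and of the end of the proline tRNA. Added proline competes with it for that site. Blocked synthetase leaves uncharged proline tRNA, which is known to activate the kinase GCN2, to reduce translation and to raise the transcription factor ATF4. In macrophages, LPS acts through TLR4 on NF-κB, which drives early cytokine and chemokine genes such as Tnf and Cxcl2, and on interferon regulatory factors, which through secreted type I interferon drive genes such as Ifit1 and Rsad2.

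The promoters of chemokine genes and of interferon-stimulated genes on which the results turn are shown here. Each line gives the 120 bases before the RefSeq start site (build GRCm38.p6, 5′ to 3′ on the strand of the gene). Capitals mark GGG, any 2 bases and TTTCC, a form of the NF-κB motif, in the first 3 and GAAA, any 2 bases and GAAA, the core of the interferon-stimulated response element, in the last 2, each searched on both strands, so that a match on the other strand shows as its reverse complement.
Cxcl1, chr5:90891125-90891244, plus strand: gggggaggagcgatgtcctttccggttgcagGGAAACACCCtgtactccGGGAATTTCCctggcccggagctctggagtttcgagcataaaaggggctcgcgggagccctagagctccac
Cxcl2, chr5:90903779-90903898, plus strand: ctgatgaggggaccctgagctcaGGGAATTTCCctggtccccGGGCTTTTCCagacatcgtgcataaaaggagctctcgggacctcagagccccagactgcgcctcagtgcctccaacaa
Cxcl3, chr5:90785981-90786100, plus strand: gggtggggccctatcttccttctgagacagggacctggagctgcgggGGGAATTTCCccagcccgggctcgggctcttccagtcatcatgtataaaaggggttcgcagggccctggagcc
Ifit1, chr19:34640769-34640888, plus strand: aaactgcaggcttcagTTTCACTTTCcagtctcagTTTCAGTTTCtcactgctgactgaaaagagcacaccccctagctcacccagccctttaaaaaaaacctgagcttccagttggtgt
Rsad2, chr12:26456453-26456572, minus strand: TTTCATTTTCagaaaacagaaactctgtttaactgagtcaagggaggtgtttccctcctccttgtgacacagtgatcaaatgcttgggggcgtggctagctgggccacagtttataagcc
The Cxcl1 and Cxcl2 windows held 2 matches each and the Cxcl3 window held 1, and Ifit1 held 2 and Rsad2 held 1 of the other motif. Both RefSeq entries of Ifit2, an interferon-stimulated gene described below, held none of the interferon motif in this window. Across the 32851 promoters of the RefSeq table, 0.737% held this NF-κB motif and 1.22% this interferon motif in a window of this length. In 250 bases before the start, the interferon motif stood in 20 of the 37 tested interferon-stimulated genes with a promoter entry (54.1%) and in 3.46% of all 27025 genes with one. In the same window, the NF-κB motif stood in 10 of 26 tested inflammatory genes (38.5%) and in 1.65% of all genes. These are matches of letters only, and no binding was measured here.

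The 8 libraries held 31971 to 62631 counts and the controls 54649 to 114061. A large share of every library fell on Rn45s, the 45S ribosomal RNA precursor. Among the low-dose and control libraries, those at 39 nM without proline stood apart in it. There the share was 64.3% and 63.7%, against 43.5% and 37.1% with proline at 39 nM. In the T4 libraries at 156 to 10000 nM it ran from 61.55% to 71.06% over both arms. At 9.7 nM it was 46.2% and 39.9% without proline and 32.0% and 37.2% with it, and the controls ran from 27.0% to 42.7% with a median of 39.3% (95% Wilson intervals reach at most 0.54 percentage points to either side and cover counting error only). Over both doses the share was 37.4% ± 4.72 (SD, n = 4) with proline and 53.5% ± 12.4 without, two-sided exact permutation p = 0.0571 and 0.0956 after adjustment over 12 tests. With the doses pooled and not blocked, the mean without proline was above the controls (38.0% ± 4.76, n = 12, exact permutation p = 0.00275, adjusted 0.0165). The same test of the libraries with proline gave p = 0.858. Without proline, both 39 nM libraries were above every control, while at 9.7 nM 46.2% was above and 39.9% inside the control range. Libraries without proline held counts on 3641 ± 210 genes and those with proline on 4882 ± 462, and the groups did not overlap. The exact permutation p of 0.0286 is the smallest that 4 against 4 allows, and 0.0686 after adjustment. Depth therefore moved with proline: counts outside Rn45s were 18693 to 22111 without proline and 28980 to 42598 with it, and the part of this in each gene result was not tested. Genes of other cell types were rare in all 20 libraries: all 7 B cell markers and 10 of 11 erythroid and mast cell markers were at 0, and neutrophil markers summed to 62.7 to 274 CPM (counts scaled to a common library size) in the 8 libraries and 98.1 to 467 in controls. The 25 macrophage identity genes in the table summed to 6374 and 5792 CPM at 9.7 nM and 4097 and 4457 at 39 nM without proline, and to 9037 and 7995, and 6784 and 7240, with it, against 6669 to 10629 in controls. All 4 libraries without proline lay below every control and all 4 with it inside the range, and the part of this in the gene results was not tested.

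**Figure D1:**
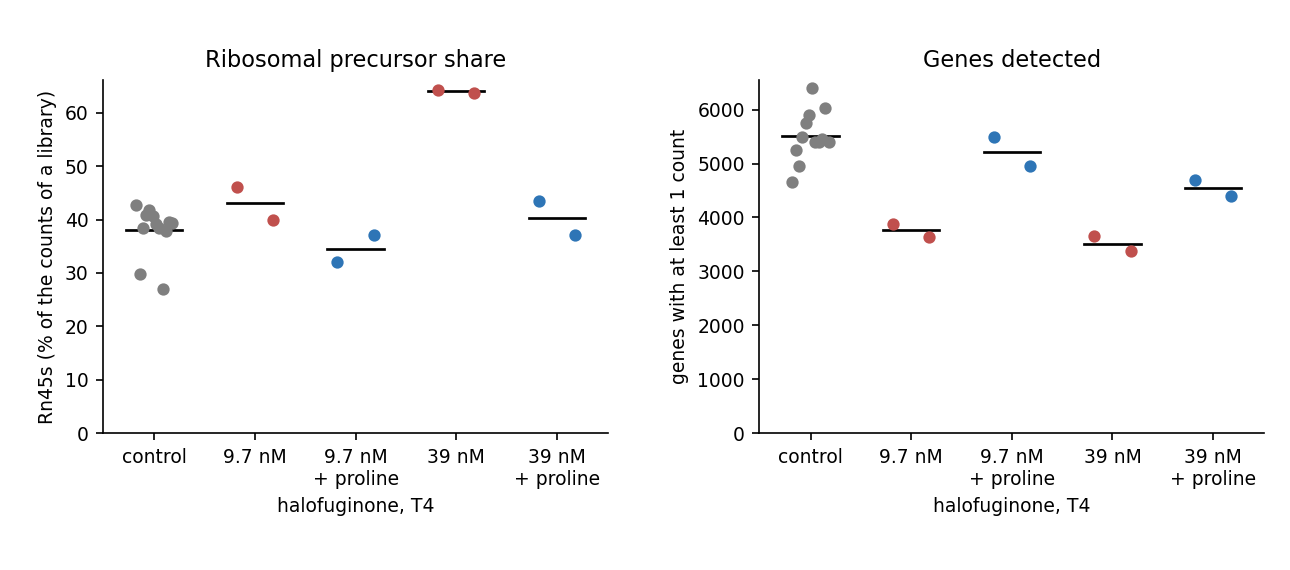
Share of Rn45s (% of the counts of a library) and number of genes with at least 1 count in the 12 T4 controls and the 8 low-dose libraries, 1 point a library, with a line at the mean of each group. The 2 libraries at 39 nM without proline sit at 64.3% and 63.7%, above every other library shown. All 4 libraries without proline have fewer genes than the 4 with it.

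Proline changed more genes at 39 nM than at 9.7 nM, and some in opposite directions. CPM are on the TMM scale over the 40 T4 libraries, log2 fold changes come with their standard error, and adjusted p-values come from edgeR's quasi-likelihood test over 988 genes. At 9.7 nM, 38 genes passed an adjusted p of 0.05 (3.85%), 18 higher (1.82%) and 20 lower (2.02%) with proline. At 39 nM, 222 genes passed (22.5%), 142 higher (14.4%) and 80 lower (8.1%). Over both doses together 184 passed (18.6%), 119 higher (12%) and 65 lower (6.58%). Of the 20 lower at 9.7 nM, 7 were called higher at 39 nM (Ccl2, Cxcl2, Gm4951, Icam1, Irf1, Klf6 and Tnf), 3 were lower at both doses and 10 were called at 9.7 nM only. Of the 18 higher at 9.7 nM, 2 were higher at both doses and 1, Mmp13, was lower at 39 nM. The effect of proline itself differed between the doses for 87 genes (8.81%), greater at 39 nM for 69 (6.98%) and smaller for 18 (1.82%). All 69 had positive values at 39 nM (median log2 of 1.64), and 58 of them had negative values at 9.7 nM (median of -0.52). The pooled split leaned on scaling: under DESeq2 it was 71 higher and 74 lower, under median-of-ratios scaling 104 and 76, and at 39 nM alone 84 and 89 under DESeq2. In this bulk RNA, fewer cells of a type and less RNA per cell cannot be told apart. An additive dose term on the 8 treated libraries, which leaves the difference between doses in the residual, passed only 4 genes, while those libraries fitted by their 4 groups passed 125.

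**Figure D2:**
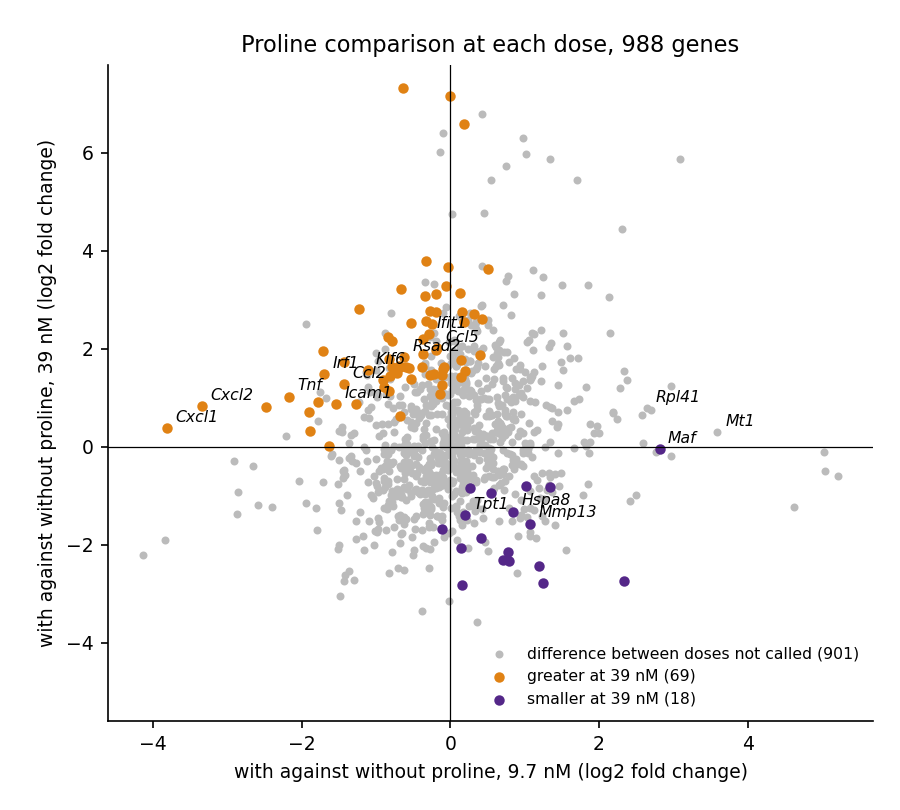
Log2 fold change with against without proline at 9.7 nM (horizontal) and at 39 nM (vertical), 1 point for each of the 988 genes; orange and purple mark the 69 and 18 genes whose effect was greater or smaller at 39 nM. Cxcl1, Cxcl2 and Tnf lie far to the left, Ifit1, Rsad2 and Ccl5 lie near 0 at 9.7 nM and high at 39 nM, and the points at the far edges come from groups with few counts.

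At 9.7 nM, halofuginone alone raised 14 of 36 tested inflammatory genes above control and lowered 3 (4.35% and 3.54% of all genes), and with proline 1 of the 36 was called above control (0.101% of all genes) and none below. Cxcl2 (chr5:90903871-90905938, plus strand, GENCODE M21), a chemokine that attracts neutrophils, was at 4040 and 5666 CPM without proline and at 513 and 551 with it. The controls ran from 684 to 1287 with a median of 837, so both libraries without proline were above every control and both with proline were below. Proline lowered Cxcl2 by a log2 fold change of -3.34 ± 0.34 (adjusted p = 2.74e-09). Its neighbour Cxcl1 (chr5:90891241-90893115, plus strand), a chemokine of the same kind, was at 981 and 932 CPM without proline and at 78.9 and 70.6 with it, and at 0 to 117 in controls. The 2 groups did not overlap, and the difference was -3.81 ± 0.60 (adjusted p = 5.22e-05). Tnf (chr17:35199381-35202007, minus strand), the cytokine tumour necrosis factor, was at 1681 and 1360 CPM without proline and at 381 and 367 with it, the latter inside the control range of 231 to 476. Proline lowered Tnf by -2.17 ± 0.34 (adjusted p = 5.22e-05). These 3 calls held in all 12 alternatives run for them: another scaling, DESeq2, no filter, no structural RNAs and each of the 8 libraries left out. For a comparison within 1 dose, leaving out a library of the other dose is a weak check. Without a 39 nM library, 31 to 36 of the 38 calls at 9.7 nM were kept, and without a 9.7 nM library 8 to 15. No alternative without the controls was run for the single doses.

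Other members of the group were called lower at 9.7 nM as well, most of them with calls lost when single libraries were left out. Icam1, an adhesion molecule on activated macrophages, was at 1354 and 1360 CPM without proline and at 500 and 537 with it, against 439 to 672 in controls. Its difference of -1.54 ± 0.28 (adjusted p = 0.000425) held in 11 of 12 alternatives, not without a filter. Ccl2, which attracts monocytes, was at 1821 and 1637 CPM without proline, at 1000 and 452 with it and at 98.1 to 450 in controls, so it fell (-1.43 ± 0.35, adjusted p = 0.0116, held in 8 of 12) but stayed above control. It was the 1 gene called between 9.7 nM with proline and control (log2 1.38 ± 0.27, adjusted p = 0.0068, 0.101% of genes), a call lost when replicate 1 with proline was left out; 71 genes had an unadjusted p under 0.05. Cxcl3, Cd83, Irf1, Klf6, Nfkbie, Il12b, Rgs1 and Rasgef1b were also called lower, between -1.11 for Klf6 and -2.66 for Rgs1, of which Rasgef1b held in 10 of 12 alternatives and the others in 5 to 9. Of the 36 tested genes of an inflammatory list (50 genes), 9 were called lower and 1, the collagenase Mmp13, higher at 9.7 nM. Over all genes 2.02% were called lower and 1.82% higher. The median of the list was -0.449, beside 0.050 for all genes.

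At 39 nM none of these chemokine and cytokine genes was called lower with proline, and several were higher. Cxcl2 was at 2026 and 1826 CPM without proline and at 2617 and 5088 with it. All 4 values exceeded the highest control, and the 2 with proline were the higher ones (0.82 ± 0.31, adjusted p = 0.0487, a call lost in 8 of 12 alternatives). Tnf was at 546 and 295 CPM without proline and at 815 and 1149 with it (1.02 ± 0.36, adjusted p = 0.0392, also lost in 8 of 12). Ccl2 was at 410 and 510 CPM without and at 1269 and 1222 with proline (1.27 ± 0.39, adjusted p = 0.0168), a call lost when any of the 4 libraries at 39 nM was left out. Cxcl1 was at 137 and 618 without and at 564 and 511 with proline, which overlapped (0.39 ± 0.54, adjusted p = 0.623). The difference between the doses did not rest on these marginal calls. It was 4.17 ± 0.46 for Cxcl2 (adjusted p = 2.46e-08), 4.19 ± 0.81 for Cxcl1 (0.000415), 3.20 ± 0.50 for Tnf (1.58e-05), 2.70 ± 0.52 for Ccl2 (0.000415), 2.41 ± 0.40 for Icam1 (3.48e-05), 3.19 ± 0.68 for the interferon regulatory factor Irf1 (0.00149) and 2.67 ± 0.49 for the transcription factor Klf6 (0.000172), each called in all 12 alternatives. At 39 nM itself Klf6 was called higher in 11 of 12 alternatives, not without 39 nM replicate 1, at 364 and 618 CPM without and 1473 and 1751 with proline (1.56 ± 0.36, adjusted p = 0.00193).

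**Figure D3:**
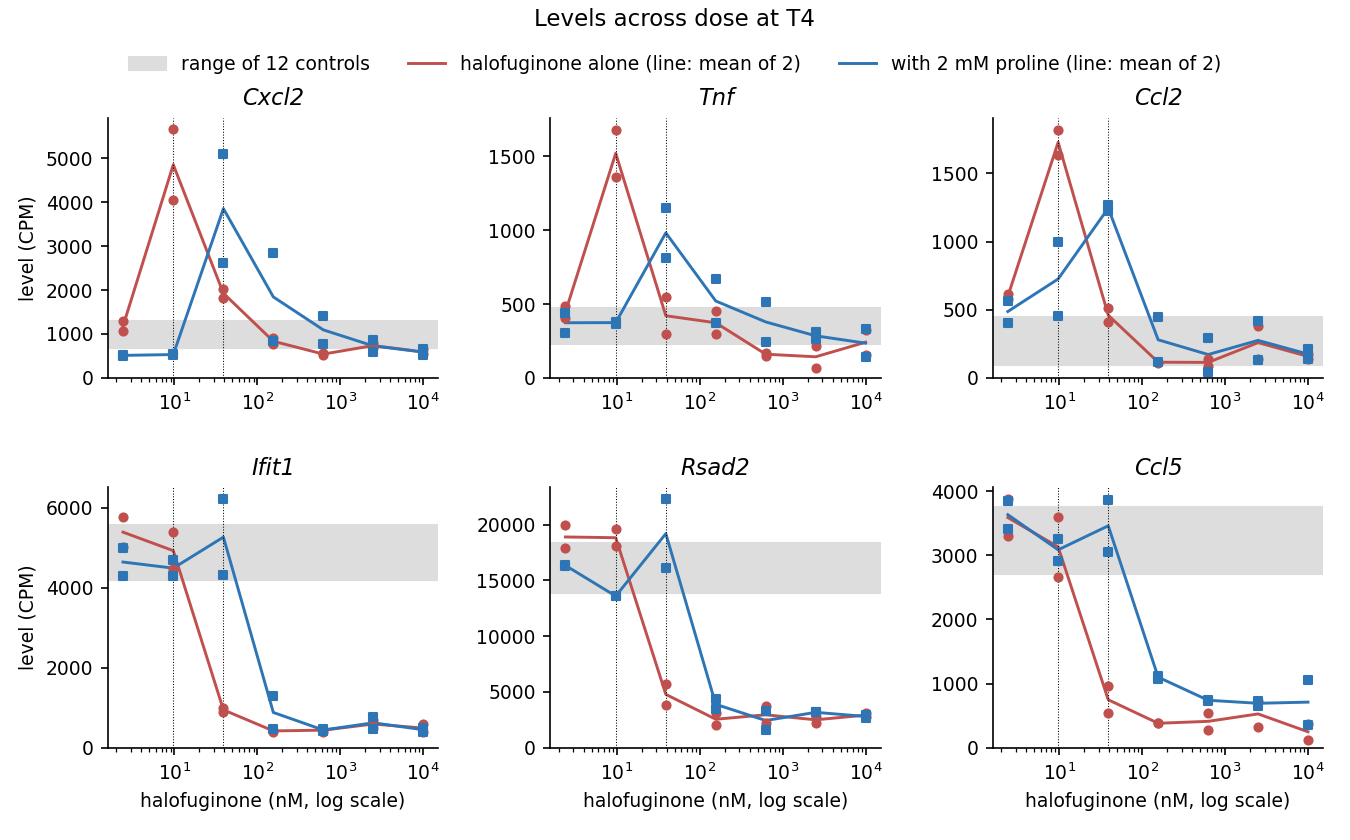
Levels (CPM) at T4 across the 7 halofuginone doses (nM, log scale), alone (red circles) and with 2 mM proline (blue squares), 2 libraries a dose with lines through their means; the grey band is the range of the 12 controls and dotted lines mark 9.7 and 39 nM. Cxcl2, Tnf and Ccl2 have their highest mean at 9.7 nM without proline and at 39 nM with it, and the means of Ifit1, Rsad2 and Ccl5 first lie far below the control band at 39 nM without proline and at 156 nM with it (Ifit1 944 and 879 CPM).

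Across doses, the highest mean of Cxcl2 stood 1 dose step apart between the arms. The mean level of Cxcl2 without proline was 1177 CPM at 2.4 nM, 4853 at 9.7 nM, 1926 at 39 nM and 835 at 156 nM. With proline it was 513, 532, 3852 and 1844 CPM at those doses. With proline the 2 libraries at 156 nM were far apart, at 2851 and 836 CPM, and with 2 libraries a point no finer reading than a dose step can be made.

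Several interferon-stimulated genes and some members of the inflammatory list (Ccl5, Il1b, Ccl4, Ccl3 and Tnfaip2) were not called at 9.7 nM and were higher with proline at 39 nM. Ifit1 (chr19:34640871-34650009, plus strand), an antiviral protein that binds foreign RNA, was at 1001 and 886 CPM at 39 nM without proline and at 4309 and 6219 with it, against 4186 to 5569 in controls. The groups were separate, and proline raised Ifit1 by 2.30 ± 0.25 (adjusted p = 2.16e-08). At 9.7 nM it was at 4460 and 5389 CPM without and 4696 and 4280 with proline, which overlapped (-0.29 ± 0.22, adjusted p = 0.563). Rsad2 (chr12:26442746-26456452, minus strand), the antiviral enzyme viperin, was at 5713 and 3840 CPM at 39 nM without proline and at 16075 and 22322 with it. The controls lay between 13878 and 18345, so only the libraries without proline were below them (1.83 ± 0.23, adjusted p = 4.35e-07). Cmpk2, its neighbour on the opposite strand, was called too (1.49 ± 0.29, adjusted p = 0.000336), and reads of the pair can be told apart only if counting used the strand, which the sources used here do not give. The chemokine Ccl5 (chr11:83525778-83530518, minus strand) was at 956 and 537 CPM without and at 3055 and 3866 with proline at 39 nM, against 2716 to 3755 in controls (2.02 ± 0.28, adjusted p = 2.35e-06).

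The cytokine Il1b (chr2:129364570-129371139, minus strand), which encodes interleukin-1β, followed the same course, at 683 and 1155 CPM without proline and 2836 and 2809 with it at 39 nM, against 2165 to 3702 in controls (1.46 ± 0.25, adjusted p = 7.81e-05). The chemokines Ccl4 (1.64 ± 0.24, adjusted p = 6.9e-06) and Ccl3 (1.6 ± 0.29, 0.000137) and the NF-κB target Tnfaip2 (1.6 ± 0.27, 4.39e-05) rose by similar amounts. Calls at 39 nM for Ifit1, Rsad2, Cmpk2, Ccl5, Il1b, Ccl4, Ccl3 and Tnfaip2 held in all 12 alternatives. Without a 39 nM library, 102 to 136 of the 222 calls at 39 nM were kept, and without a 9.7 nM library 200 to 217. Il6, which encodes interleukin-6, was at 22.8 and 80.6 CPM without and 251 and 310 with proline at 39 nM, from 4 counts in all without proline (2.29 ± 0.75, adjusted p = 0.0253, lost under DESeq2 and without any of 3 libraries). Irf9, a subunit of the interferon-activated factor ISGF3, had 2 counts at 39 nM without proline, 43 with it and 15 and 43 at 9.7 nM, and was called at 39 nM in all 12 alternatives. Nfkbia, the NF-κB inhibitor IκBα, was at 956 and 752 CPM without and 2084 and 1988 with proline (1.08 ± 0.26, adjusted p = 0.0031, lost only without replicate 2 at 39 nM alone).

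Of 46 tested interferon-stimulated genes (list of 50), 15 were called higher and 1 lower with proline at 39 nM, with a median of 0.790 beside 0.161 for all genes, of which 14.4% were called higher and 8.1% lower. At 9.7 nM none was called higher and Irf1 was called lower (1.82% and 2.02% of all genes), with a median of -0.155. Against control at 9.7 nM, 4 of the 46 were called above and 1 below without proline (4.35% and 3.54% of all genes), and none with it. At 39 nM without proline, 7 were above and 13 below control, beside 16.5% and 22.4% of all genes. With proline, 7 were above and 1 below at that dose, beside 5.16% and 2.83% of all genes. Of the inflammatory list, 15 were called higher and 3 lower at 39 nM, with a median of 0.687. Under DESeq2 the counts at 39 nM were 11 and 1 in the interferon-stimulated genes and 11 and 3 in the inflammatory list. Beside these stood 84 higher and 89 lower of all 988 genes under DESeq2. Ifit2 (chr19:34550694-34576419, plus strand), an antiviral gene next to Ifit1, was the 1 interferon-stimulated gene that fell: it was at 6509 and 4941 CPM at 39 nM without proline, above the controls at 1856 to 3510, and at 2272 and 3082 with it (-1.27 ± 0.24, adjusted p = 0.000298, held in all 12). Among the inflammatory genes, Mmp13 turned with dose. It was at 607 and 478 CPM without and 1421 and 1144 with proline at 9.7 nM, and at 1707 and 2202 without and 877 and 584 with it at 39 nM. The difference between doses was -2.65 ± 0.40 (adjusted p = 7.69e-06, held in all 12), although the call at 9.7 nM (1.08 ± 0.29, adjusted p = 0.0276) was lost when any 9.7 nM library was left out. Cxcl10, an interferon-induced chemokine, and Isg15, a ubiquitin-like interferon-induced protein, did not pass for proline over both doses, and Cxcl10 was above control at 39 nM without proline (0.76 ± 0.16, adjusted p = 0.000264). Their values over both doses were -0.31 ± 0.15 (adjusted p = 0.141) and -0.13 ± 0.18 (adjusted p = 0.641).

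**Figure D4:**
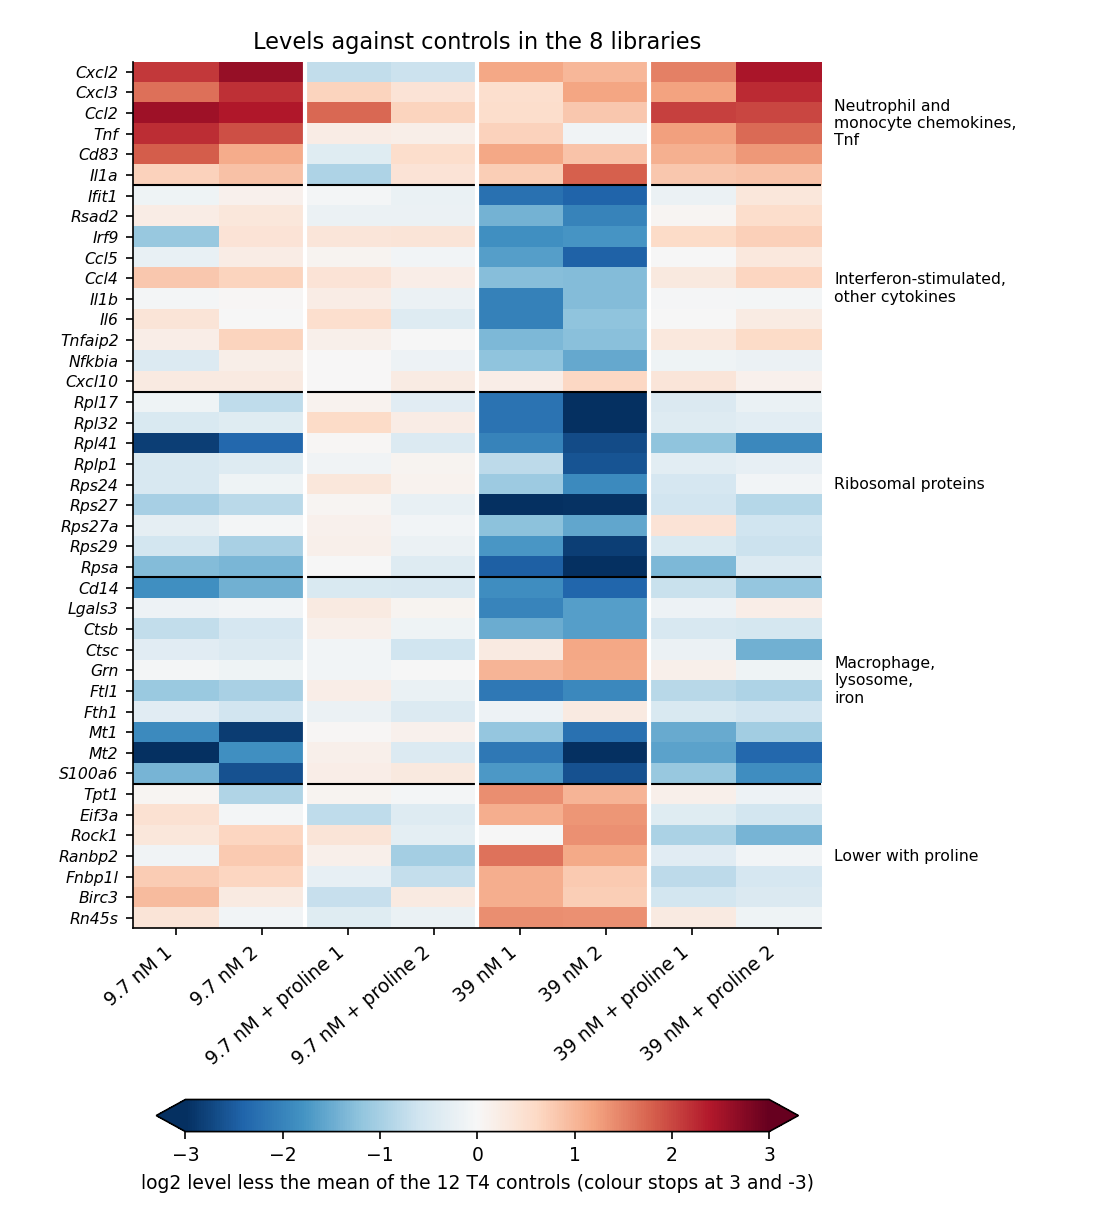
Log2 level (prior count of 3) of 42 genes in each of the 8 libraries less the mean of the 12 T4 controls (colour, stopped at 3 and -3), genes in rows by class and libraries in columns by dose and arm. Chemokines and Tnf are red at 9.7 nM alone and at 39 nM with proline, most interferon-stimulated and ribosomal protein genes shown are blue at 39 nM alone, and the columns of 9.7 nM with proline are the palest.

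Ribosomal protein genes were low in sum at 39 nM without proline and higher with it. The sum of other translation factors was not, and most of it there came from Tpt1. Ribosomal protein mRNAs share a 5′ terminal oligopyrimidine tract through which their translation follows nutrient supply. Summed over the large-subunit ribosomal proteins, the level was 5462 and 4833 CPM at 39 nM without proline and 10999 and 11799 with it. At 9.7 nM the sum was 11021 and 11056 without and 17733 and 14974 with proline, and it was 14165 to 18866 in controls. The small-subunit sum was 3323 and 2497 without and 9401 and 8681 with proline at 39 nM, and 7892 and 8663 without and 13694 and 10820 with proline at 9.7 nM. In both sums the libraries with proline were above those without at each dose, but those at 39 nM with proline were still below every control. Of 46 tested large-subunit genes, 13 were called higher and none lower with proline at 39 nM (median 1.17), and of 30 small-subunit genes 15 and none (median 1.36), beside 14.4% higher and 8.1% lower and a median of 0.161 over all genes. DESeq2 called 6 and 8 of them higher at 39 nM and none lower, beside 84 higher and 89 lower of all 988 genes. Median-of-ratios scaling called 9 and 12 higher and 1 large-subunit gene lower, beside 121 higher and 99 lower of all 988. Of the low-dose and control libraries, those at 39 nM without proline had the lowest values of both sums. The Rn45s share was highest in the same libraries, and its part in the sums was not tested.

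Single ribosomal protein genes showed both patterns. Rpl17, a protein of the large subunit, was at 114 and 26.9 CPM without and at 517 and 620 with proline at 39 nM, against 563 to 856 in controls (2.75 ± 0.51, adjusted p = 0.00017, held in all 12). Rpsa, Rps27 and Rpl32 were each down to 2 counts at 39 nM without proline, against 29, 39 and 36 with it, and no fold is given for them. Rpl41, the shortest ribosomal protein, changed at 9.7 nM instead, at 93.4 and 151 CPM without and 1000 and 720 with proline against 785 to 1231 in controls (2.65 ± 0.43, adjusted p = 8.03e-05, held in all 12). The 18 other translation factors with such tracts went the other way in sum, at 11881 and 9935 CPM without and 8006 and 6839 with proline at 39 nM, against 6933 to 9995 in controls. Tpt1 made up most of that sum without proline, so the direction of the sum rested on this gene. Of the 10 tested at 39 nM, 1 rose and 1 fell with proline, beside 14.4% and 8.1% of all genes. Their median at 39 nM was -0.056, beside 0.161 for all genes. Without proline, Tpt1 and the initiation factor gene Eif4b (1.6 ± 0.51, adjusted p = 0.0116) were above control there, and so was the ribosomal protein gene Rpl4 (1.0 ± 0.31, adjusted p = 0.00957), both named after their values were seen. The one that fell was Tpt1, a small growth-linked protein, at 7829 and 6015 CPM without and 3275 and 2663 with proline, against 2304 to 5088 in controls (-1.39 ± 0.28, adjusted p = 0.000373). The one that rose was Gnb2l1, the ribosome-bound scaffold RACK1, from 3 counts without proline to 31 with it.

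Some macrophage, iron and lysosomal genes were higher with proline, and some of them stayed below control. At 39 nM, 1 of 6 tested iron and NRF2 target genes was called higher and 1 lower. Of 17 tested lysosomal genes 4 were called higher and 2 lower there, beside 14.4% and 8.1% of all genes. Cd14, the LPS co-receptor, was at 140 and 202 CPM without and 447 and 438 with proline at 9.7 nM, and at 137 and 80.6 without and 376 and 255 with it at 39 nM. All 4 libraries with proline were above all 4 without, though below every control (470 to 859), and the difference over both doses was 1.28 ± 0.34 (adjusted p = 0.0084), lost without 9.7 nM replicate 1 or without 39 nM with proline replicate 1. Ftl1, the ferritin light chain that stores iron, was at 747 and 831 CPM without and 1947 and 1469 with proline at 9.7 nM, and at 341 and 403 without and 924 and 857 with it at 39 nM. It too did not overlap between the arms (1.02 ± 0.20, adjusted p = 0.000485). At 9.7 nM with proline Ftl1 reached the control range of 1408 to 1995, and at 39 nM it did not. Lgals3, the lectin galectin-3, was at 501 and 644 CPM without and 1912 and 2480 with proline at 39 nM (1.77 ± 0.28, adjusted p = 2.86e-05, held in all 12). Of 15 tested macrophage identity genes (list of 27), 3 were called higher over both doses, Lgals3, Cd14 and the transcription factor Maf, and none lower, with a median of 0.455, beside 12% higher and a median of 0.143 over all genes.

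The metallothionein gene Mt2, a zinc-binding protein, stood at control level in 1 of the 4 groups only. It was at 23.4 and 126 CPM without and 658 and 424 with proline at 9.7 nM, at 91.0 and 26.9 without and 157 and 72.9 with it at 39 nM, and at 409 to 1157 in controls. The call at 9.7 nM (2.70 ± 0.58, adjusted p = 0.00513) was lost without replicate 1 of either 9.7 nM group. The calcium-binding protein genes S100a4 and S100a6 and Mt1 were called higher at 9.7 nM as well, S100a6 from 3 counts to 48 and Mt1 from 2 to 50. Maf, which shapes macrophage differentiation, rose from 46.7 and 50.4 CPM to 579 and 212 at 9.7 nM (2.82 ± 0.60, adjusted p = 0.00509, held in 9 of 12). In the lysosome list (17 tested), 4 genes were called higher with proline at 39 nM, the proteases Ctsb and Ctsd, the cholesterol carrier Npc2 and the saposin precursor Psap. That is 4 of 17 higher and 2 of 17 lower beside 14.4% and 8.1% of all genes. The 2 called lower were the growth factor precursor Grn, at 2299 and 2497 CPM without and 1253 and 1021 with proline (-1.24 ± 0.26, adjusted p = 0.000794), and the protease Ctsc (-1.67 ± 0.34, adjusted p = 0.000493). Npc2 was at 91.0 and 80.6 CPM without and 611 and 529 with it (2.54 ± 0.49, adjusted p = 0.000303, held in all 12).

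The 8 largest decreases over both doses, by the naming rule, were Fnbp1l, Anp32a, Eif3a, Rock1, Ranbp2, Tln1, Birc3 and Filip1l. Fnbp1l, which bends membranes and nucleates actin, was at 607 and 554 CPM without and 276 and 184 with proline at 9.7 nM, and at 774 and 618 without and 172 and 219 with it at 39 nM. The arms did not overlap, and the difference was -1.75 ± 0.32 (adjusted p = 0.0003). It alone of the 8 stayed called in all 18 alternatives run for the pooled comparison, an additive dose term and a replicate block among them. Eif3a, a subunit of the initiation factor eIF3, was at 350 and 227 CPM without and 118 and 170 with proline at 9.7 nM, and at 569 and 671 without and 172 and 146 with it at 39 nM (-1.63 ± 0.41, adjusted p = 0.0065). The remaining 6 overlapped between the arms, with values from -1.70 ± 0.40 for the acidic nuclear protein Anp32a to -1.36 ± 0.42 for Filip1l, and the calls of Tln1 and Filip1l held in only 10 and 9 of 18 alternatives. The nuclear RNA Malat1 was higher at 39 nM without proline, at 3323 and 1987 CPM, than in the controls (728 to 1922) and stood at 1081 and 766 with proline (-1.69 ± 0.34, adjusted p = 0.000377, held in all 12). Malat1, Tpt1 and Grn moved in the same direction as Rn45s, and its part in them was not tested.

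The 8 largest increases by the rule were Tmem50a, Creg1, Rpsa, Rps27, S100a6, Irf9, Rpl32 and Shfm1. Each had at most 3 counts in at least 1 group without proline, so their fitted values are no measure of size. Tmem50a, a membrane protein, had 10 counts without and 43 with proline at 9.7 nM and 2 and 42 at 39 nM. In levels it stood at 163 and 75.6 CPM without and 303 and 283 with proline at 9.7 nM, and at 298 and 419 with proline at 39 nM, within the control range of 157 to 535. Creg1, a secreted lysosomal glycoprotein, had 6 and 28 counts at 9.7 nM and 1 and 20 at 39 nM. The proteasome component Shfm1 had 15 and 40 counts at 9.7 nM and 1 and 23 at 39 nM.

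Most genes of the pathway by which halofuginone is known to act were too rare to test. Eprs, its target, had 2 counts without and 4 with proline at 9.7 nM, 4 and 6 at 39 nM and 55 over the 12 controls. Atf4 had 12 and 21 counts at 9.7 nM and 7 and 23 at 39 nM, with 71 over the controls. Its targets Asns, Trib3, Ddit3 and Slc7a11 had at most 7 counts in any of the 4 groups and Chac1 had none, so a change in them was not detectable at this depth. In a list of 36 ATF4 targets and integrated stress response genes, 5 could be tested. Over both doses 1 of these was called, beside 18.6% of all genes. That gene was Ppp1r15a, the phosphatase subunit GADD34, at 234 and 151 CPM without and 13.2 and 56.5 with proline at 9.7 nM, and at 228 and 430 without and 172 and 146 with it at 39 nM. Its difference of -1.88 ± 0.65 (adjusted p = 0.0359) rested on few counts and held in 8 of 15 alternatives. Atf3, a stress-induced transcription factor, was tested from 19 counts without and 20 with proline at 9.7 nM and 6 and 7 at 39 nM, and 106 over the controls. Of the 18 proline metabolism genes and 23 cytosolic tRNA synthetases none passed the filter on low counts.

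Few chaperone, iron and glycolysis genes could be tested. At 39 nM the heat shock protein gene Hspa8 (-1.32) and the endoplasmic reticulum chaperone gene Calr (-1.22) were called lower with proline, each 1 of 4 tested in its list. Over all genes 8.1% were called lower there. Hspa8 differed between the doses by -2.17, and no gene of either list was called over both doses. Of 6 tested iron and NRF2 target genes Ftl1 was called higher and Fth1, the ferritin heavy chain, lower at 39 nM (-0.75). Beside these stood 14.4% higher and 8.1% lower over all genes. At 9.7 nM, 2 of the 6 were called higher, Ftl1 among them, beside 1.82% of all genes. Of 7 tested hypoxia and glycolysis genes 1 was called over both doses, the oxygen-sensing factor Hif1a (-1.89), a gene named after its values were seen. Over both doses 6.58% of all genes were called lower. Irg1, which makes itaconate in activated macrophages, was at 957 and 1007 CPM without and 1552 and 1667 with proline at 9.7 nM, and at 751 and 483 without and 1034 and 1167 with it at 39 nM. Its arms did not overlap (0.60 ± 0.18, adjusted p = 0.0208), but the call held in 6 of 18 alternatives.

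Read against control, the libraries with proline held fewer called genes than those without at each dose. These comparisons share the 12 controls. At 9.7 nM, 78 genes (7.89%) were called without proline, 43 higher (4.35%) and 35 lower (3.54%), and 1 with it. At 39 nM, 384 (38.9%) were called without proline, 163 higher (16.5%) and 221 lower (22.4%; under DESeq2 182 and 141, with every gene kept 68 and 255), and 79 (8%) with it, 51 higher (5.16%) and 28 lower (2.83%). Over both doses 300 (30.4%) were called without proline, 115 higher (11.6%) and 185 lower (18.7%), and 46 (4.66%) with it, 31 higher (3.14%) and 15 lower (1.52%; 8 and 14 with every gene kept). By the naming rule the largest increases with halofuginone alone over both doses were Cxcl2, Cxcl3, Ccl2, Cd83, Marcksl1, Il1a, Anp32a and Abi1, and the largest decreases S100a6, Mt2, Creg1, Mt1, Rpsa, Rpl41, Rps27 and Tmem50a. The genes that still differed from control at 39 nM with proline included Cxcl1 (3.48 ± 0.40, adjusted p = 3.9e-08), Cxcl2 (2.26 ± 0.20, 8.5e-11), Ccl2 (2.29 ± 0.25, 1.21e-08) and Tnf (1.75 ± 0.24, 1.46e-06) above it. Below it were Rpl41 (-1.50 ± 0.28, adjusted p = 0.000219), Mt2 (-2.18 ± 0.41, 0.000219), S100a4 (-1.93 ± 0.32, 4.06e-05) and Maf (-1.59 ± 0.35, 0.00223). Of the inflammatory list, 15 of 36 were called above control at 39 nM with proline and 2 below, Mmp13 and the acute-phase gene Saa3.

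Genes that respond to high doses gave a second view. In libraries at 625, 2500 and 10000 nM without proline against the same 12 controls, 529 of 778 tested genes (68%) were called, 218 higher (28%) and 311 lower (40%). Of the 218, 214 were tested at the low doses. At 39 nM without proline, 118 of these 214 were called above control and none below (median 1.04, beside 16.5% above, 22.4% below and a median of -0.193 over all genes), and with proline 11 above and 2 below (median 0.074, beside 5.16%, 2.83% and -0.040). Of the 311, none was above and 192 below control at 39 nM without proline (median -1.37), and 15 above and 23 below with it (median -0.156). At 9.7 nM without proline the medians were 0.173 and -0.330, and with proline -0.147 and 0.031. Directly compared, with against without proline over both doses, 50 of the 214 were called lower and none higher, and 105 of the 311 higher and none lower. Over all genes 12% were called higher and 6.58% lower in this comparison. An additive dose term on the 8 libraries, with its 4 calls, left 4 of the 214 lower and none of the 311 higher. The lists were chosen against the same 12 controls, so the values against control are not independent of that choice, and no test was made of the lists.

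**Figure D5:**
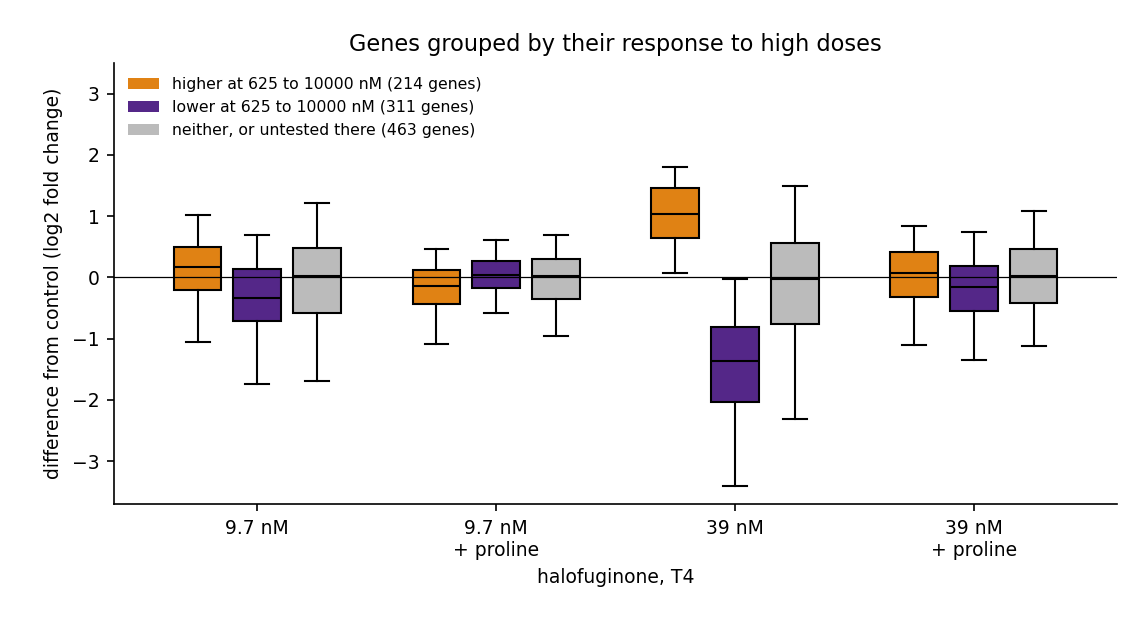
Log2 difference from control of genes grouped by their response to 625 to 10000 nM halofuginone alone (214 higher, 311 lower, 463 neither or untested there), in the 4 low-dose groups; boxes are quartiles with the median and whiskers span the 5th to 95th percentiles. The 2 classes part at 39 nM without proline (medians 1.04 and -1.37) and lie near 0 in both groups with proline.

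Since the arms looked displaced by a dose step, 39 nM with proline was set against 9.7 nM without it, a comparison added after the data were seen. No gene passed (0%) in edgeR's test of 988 genes or under DESeq2, and 62 had an unadjusted p under 0.05. The median difference was 0.039 over all genes, -0.080 over the 36 inflammatory and 0.162 over the 46 interferon-stimulated genes. With 2 libraries a group this does not show that the groups are alike. Levels of Cxcl2 were 2617 and 5088 against 4040 and 5666 CPM, of Tnf 815 and 1149 against 1681 and 1360, and of Ifit1 4309 and 6219 against 4460 and 5389.

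The effect of proline at the low doses was tested against that at 625 to 10000 nM and against that at T0. Against high doses, 16 of 1315 genes (1.22%) differed, 6 greater (0.456%) and 10 smaller (0.76%) at the low doses. In that fit Fnbp1l changed by -1.70 ± 0.35 at the low doses and by 0.42 ± 0.28 at the high ones, a difference of -2.12 ± 0.45 (adjusted p = 0.00357). Cxcl2 changed by -1.22 ± 0.26 and 0.31 ± 0.26 (difference -1.52 ± 0.37, adjusted p = 0.0138). Its low-dose value describes neither dose, since the fit of the low doses and controls gave -3.34 at 9.7 nM and 0.82 at 39 nM. The ribosomal precursor Rn45s changed by -0.99 ± 0.15 and 0.00 ± 0.12 (difference -0.99 ± 0.19, adjusted p = 0.000684). Leaving out 2500 nM replicate 1 or 625 nM with proline replicate 1 lowered the count to 10 or 8. The direction of the split turned with scaling and gene set: 32 greater and 11 smaller under DESeq2 (43 in all), 16 and 8 under median-of-ratios scaling and 10 and 5 without structural RNAs. Against T0, 44 of 1242 genes (3.54%) differed, 35 greater (2.82%) and 9 smaller (0.725%) at T4. The cytokine gene Il1b had 65 counts without and 5 with proline at T0, and 313 and 780 at T4 (adjusted p of the difference 1.1e-05). Cxcl2 had 277 counts without and 28 with proline at T0 and 555 and 524 at T4 (adjusted p of the difference 1.48e-05). At T4 the counts of Cxcl2 went from 398 to 78 at 9.7 nM and from 157 to 446 at 39 nM. Il1b and Cxcl2 were at 0 counts at T0 in 9.7 nM with proline, so no size is given. Tnfaip2 changed by 0.54 at T4 and by -1.76 ± 0.27 at T0 (difference 2.30 ± 0.33, adjusted p = 1.25e-06). The T4 value of Tnfaip2 joins opposite signs, -0.555 at 9.7 nM and 1.616 at 39 nM in the fit of the low doses and controls. The count fell to between 22 and 29 without any of 4 libraries: T0 39 nM replicate 2, T0 9.7 nM with proline replicate 1, T0 9.7 nM replicate 2 or T4 9.7 nM replicate 1.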

How the data were processed

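The deposited table holds raw read counts per gene symbol for 120 libraries. Per the submitters' processing notes, BWA and the mm10 genome were used; those notes and labels name no counting program, annotation, strand or molecular identifier, so reads of paralogs (Cxcl1, Cxcl2 and Cxcl3, Ccl3 and Ccl4, Mt1 and Mt2, ribosomal proteins) and of antisense or overlapping genes are uncertain. The 8 low-dose libraries and 12 controls at T4 formed 5 groups in edgeR 4.0.16 (R 4.3.3; TMM scaling, quasi-likelihood test, Benjamini-Hochberg adjustment, filterByExpr with a minimum count of 10), which left 15 residual degrees of freedom, 11 of them from controls. The design has dose as a block in that the pooled proline effect is the mean of the effects at 9.7 and 39 nM. Standard errors were derived as the log2 fold change over the root of F and can be too small where counts are few. In the report no fold is given where a group had 3 counts or fewer, and fitted values of this kind in the closing section are marked there. Library measures were compared by exact permutation tests. DESeq2 1.42.0, other scaling, filters and designs, and each library left out were alternatives. The script was tested on simulated data.

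Members and gene lists were chosen with earlier results of these data known. The naming rule took the 8 largest increases and decreases of the pooled proline and halofuginone comparisons with adjusted p under 0.05 and a mean abundance no lower than the median gene's, the 3 most abundant members of each list and a fixed set that includes Il1b, Tnf, Cxcl2, Rsad2 and Ifit1. Cxcl1, Icam1, Irf1, Nfkbie, Il12b, Rgs1, Rasgef1b, Cmpk2, Ccl3, Ifit2, Mmp13, Isg15, Gnb2l1, Maf, S100a4, Ctsd, Npc2, Psap, Malat1, Ppp1r15a, Hif1a, Eif4b, Rpl4 and Saa3 were named after their values were seen. Gene positions are from GENCODE M21 (GRCm38, the same assembly as mm10), which matched 21911 of 23481 symbols. All symbols with a promoter in the RefSeq table were searched for the motifs, and none of Ccl2, Ccl4 and Ccl5 has an entry there. Replicates of a group differed by more than sampling noise and none were identical. T0 libraries and doses of 625 to 10000 nM entered only the 3 comparisons that name them.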

Additional observations from a re-analysis of the deposited data

Results flagged for a closer look

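A test of the difference between 2 effects of proline picked out 41 values, given on the log2 scale with adjusted p-values under 0.05 in edgeR's test. For 39 nM less 9.7 nM the positive differences were Cxcl2 4.17, Tnf 3.20, Irf9 3.12, Ccl2 2.70, Cxcl3 2.68, Klf6 2.67, Ifit1 2.59, Rpl17 2.59, Rsad2 2.45, Ccl4 2.24, Ccl5 2.20, Tnfaip2 2.17, Sqstm1 2.14, Cd83 1.64, Lgals3 1.6, Il1b 1.58 and Nfkbia 1.21. The negative ones were Hspa8 -2.17, Tpt1 -1.59 and Ctsc -1.56. The value of Irf9 rests on 2 counts at 39 nM without proline and is no measure of size, and its call was lost in 11 of 12 alternatives.

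For the low doses less the high doses the differences were Rps29 2.78, Anp32a -2.79, Fnbp1l -2.12, Ranbp2 -2.02, Cxcl2 -1.52 and Rn45s -0.99. The effect on Anp32a was -1.65 at the low and 1.13 at the high doses, and that on Ranbp2 was -1.47 and 0.55. Rps29 had 200 counts with and 55 without proline at the low doses and 7 and 25 at the high ones, with 2 at 10000 nM with proline, so its fitted difference is no measure of size either.

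For T4 less T0 at the low doses they were Il1b 5.18, Cxcl2 4.55, Cxcl3 3.72, Mt2 2.75, Mt1 2.70, Shfm1 2.40, Tnfaip2 2.30, Cd14 2.04, Nfkbia 2.00, Rpl32 1.77, Rps27 1.69, Klf6 1.53, Junb 1.47, Lgals3 1.36 and Rn45s -1.0. At T0 proline went with lower Tnfaip2 (-1.76 ± 0.27, adjusted p = 5.25e-06) and at T4 the value was 0.54. Il1b, Cxcl2 and Cxcl3 were at 0 counts at T0 in 9.7 nM with proline, and Mt1, Rpl32, Rps27 and Shfm1 had 1 or 2 counts in a group without proline at T4, so these fitted differences are no measure of size. Cd14 was at 1.29 at T4 and -0.75 at T0 (adjusted p = 0.359 there).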

How the results depend on the processing

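Without a filter on low counts the calls were 20 for proline at 9.7 nM, 137 at 39 nM, 43 for the difference between doses, 22 and 41 for proline-treated libraries against control over both doses and at 39 nM, 10 for low less high doses, 25 for T4 less T0 and 1105 for the high-dose genes. DESeq2 gave 43 for low less high doses. Over both doses an additive dose term on 8 libraries left 4 calls (3 with the 988 genes) against 184; 4 groups without controls gave 125. Leaving out 1 library gave 87 to 170 calls over both doses, 9 to 37 at 9.7 nM, 105 to 226 at 39 nM and 57 to 85 for their difference. Against control it gave 32 to 89 at 9.7 nM alone, 214 to 408 at 39 nM alone, 209 to 312 over both, and with proline 0 to 1, 24 to 90 and 18 to 56. The range was 0 to 0 for 39 nM with proline against 9.7 nM alone, 8 to 23 for low less high doses, 22 to 60 for T4 less T0 and 486 to 547 for high-dose genes. The lowest counts came without 9.7 nM replicate 1 (87 over both), 9.7 nM with proline replicate 1 (9 at 9.7 nM; 97 over both), 39 nM with proline replicate 2 (105 at 39 nM; 110 over both) and 39 nM replicate 2 (109 over both; 57 for the difference; 132 at 39 nM; 214 against control); without 39 nM replicate 1 there were 139 and 224. The split of calls over both doses moved from 64.7% higher to 57.8% under median-of-ratios scaling and 49.0% under DESeq2. That scaling moved the median of all genes at 39 nM from 0.161 to 0.027. DESeq2 shares of higher calls were 48.6% (64.0% in edgeR) for proline at 39 nM, 34.4% (47.4%) at 9.7 nM, 56.3% (42.4%) and 67.2% (55.1%) for halofuginone alone at 39 and 9.7 nM, and 57.4% (67.4%) with proline over both.

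Against control at 39 nM alone, Fth1 turned to -0.17 without a filter and Tln1 ranged from -0.89 without 39 nM replicate 1 to 1.94 without replicate 2; the cause was not tested. Counts per library differed by 9706 between arms, and by 14683 without Rn45s (exact permutation p = 0.0286); leaving out 1 library gave 4885 to 14619. The same ranges were 1039 to 1402 for genes with a count, -20.6 to -12.5 points for Rn45s, and -1.29 to -0.37 points for Lars2. The replicate block left 3 calls. Same-numbered libraries showed little shared deviation (correlations from -0.0533 to 0.102 over 6 pairs of groups, 1 of them over 0.1). With 2 libraries a group this cannot show whether same-numbered libraries shared a plate or culture. Depth limits genes under about 10 counts a group, the ATF4 targets among them.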
